A study of Rattus norvegicus with 57 samples.

Results

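The effect of a 3 mg/kg dose of cisplatin on kidney gene expression was followed from day 8 to day 26, gene by gene. The quantity examined was the difference between dosed and saline rats on day 26 minus the same difference on day 8, on the scale of log2(signal + 16). It was computed for all 11683 genes that passed a filter on low signals, out of 31099 probe sets. The effects compared came from 19 of the 57 rats of the series. Killed on day 26 were 5 rats given 3 mg/kg and 4 saline controls. Killed on day 8 were 5 rats given 3 mg/kg and 5 saline controls. All were male Han Wistar rats, 8 weeks old when injected once into the peritoneum with cisplatin in saline or with saline alone. The sample titles give the groups and call the arrays biological replicates. No rat was sampled on both days, so recovery was measured between animals and not within them. Each array held RNA from a homogenate of a cortex-enriched piece of kidney. The main statistical fit took in all 57 arrays, so its standard errors and p-values also rest on the spread of the other rats. Those were rats given 1 mg/kg, and 3 mg/kg and saline rats of days 3 and 5. Some of their effects are given below for comparison.

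Cisplatin is a platinum drug that crosslinks DNA. In the kidney it enters proximal tubule cells, in part through the organic cation transporter Slc22a2, and activates the transcription factor p53, which switches on genes of cell cycle arrest and DNA repair. Injured tubule cells lose their specialised transport genes and switch on injury genes such as Havcr1, and surviving cells can later divide and restore the lining.

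Immediate early genes are transcription factors and signalling genes switched on within minutes of a stimulus. The promoters below belong to immediate early and related genes that were higher in 3 mg/kg rats than in controls on day 26, and they are shown because they share a sequence feature. They are the 130 bases before the annotated gene start, credited to RefSeq on build GRCr8, written 5′ to 3′ on the gene's own strand, with capitals marking each CArG box, the binding sequence of serum response factor.
Egr1 (chr18:26736948-26737077, plus strand): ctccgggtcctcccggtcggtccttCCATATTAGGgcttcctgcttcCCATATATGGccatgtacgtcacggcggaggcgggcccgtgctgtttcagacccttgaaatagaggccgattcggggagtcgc
Egr2 (chr20:21054442-21054571, minus strand): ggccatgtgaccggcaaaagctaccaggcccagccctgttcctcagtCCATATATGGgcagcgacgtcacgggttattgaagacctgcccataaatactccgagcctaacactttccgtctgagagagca
Zfp36 (chr1:92799109-92799238, minus strand): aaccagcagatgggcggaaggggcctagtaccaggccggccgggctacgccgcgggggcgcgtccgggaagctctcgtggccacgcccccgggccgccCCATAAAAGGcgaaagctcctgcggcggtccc
Srf (chr9:21923946-21924075, plus strand): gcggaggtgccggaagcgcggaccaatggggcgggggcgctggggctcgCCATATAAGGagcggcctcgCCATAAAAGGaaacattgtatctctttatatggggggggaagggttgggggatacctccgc
Cnn2 (chr7:10370313-10370442, minus strand): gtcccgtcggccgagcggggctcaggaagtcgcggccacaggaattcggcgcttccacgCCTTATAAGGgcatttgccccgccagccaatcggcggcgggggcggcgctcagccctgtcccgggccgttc

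The values are MAS5 signals of the Affymetrix Rat 230 2.0 array, a one-colour platform that reads biotin-labelled RNA with sets of short probes. The genes were tested with limma, and a gene was called at a Benjamini-Hochberg adjusted p under 0.05. Median signal per array ran from 23.8 to 24.6 in the 3 mg/kg rats of day 26 and from 20.9 to 22.5 in their controls, without overlap. The 3′/5′ ratio of actin, a sign of RNA quality, ran from 5.07 to 6.83 in the 3 mg/kg rats of day 26 and from 4.47 to 5.73 in their controls. As markers of the labelled tissue, 35 of 38 proximal tubule transporters and 19 of 28 loop and distal tubule genes passed the filter. Of markers of other tissues, 2 of 8 adrenal, 5 of 9 adipocyte, 7 of 10 liver and 6 of 10 blood cell genes passed, as did 6 of 8 inner medulla genes. Passing the filter therefore does not by itself tell these tissues apart. The tissue was bulk, so fewer cells of a type and less RNA per cell cannot be told apart.

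Most genes called on day 8 were not called on day 26. Genes that had fallen at least 2-fold had a median share of 2.64% of their day 8 effect left. Among them were genes of the loop of Henle, the distal tubule and proximal transporters. Among risen genes, Havcr1, Spp1, Gpnmb and p53 targets such as Cdkn1a were classed as turned back partly. Of these, Havcr1, Spp1 and Gpnmb were not called on day 26, while Cdkn1a was. Immediate early genes such as Egr1 were called on day 26 with no detected change since day 8. On day 26 limma called 88 genes (0.753% of those tested), 65 higher (0.556%) and 23 lower (0.197%) in 3 mg/kg rats, against 4360 genes on day 8 (37.3%), 2502 higher (21.4%) and 1858 lower (15.9%). The change of the effect passed for 1748 genes (15.0%), 853 with a higher (7.30%) and 895 with a lower effect (7.66%) on day 26. Between the controls of day 26 and day 8, 149 genes (1.28%) differed, 84 higher (0.719%) and 65 lower (0.556%) on day 26. Every 3 mg/kg rat stood above every control for 3.62% and below for 2.37% of genes on day 26 (5.99% in all), and for 9.41% and 6.95% on day 8 (16.4% in all).

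The day 26 count changed with single animals and with the arrays fitted. Fitted on the 19 arrays alone, limma called 7 genes on day 26 and 868 for the change, and with the actin ratio as a covariate it called 26 genes on day 26. Leaving out control replicate 1 or 4 of day 26 left 12 and 21 genes. Leaving out 3 mg/kg replicates 1, 3, 4 or 5 of day 26 left 18, 41, 23 and 49, whereas leaving out replicate 2 gave 209. Without 3 mg/kg replicate 2 of day 8 the count was 163. At an unadjusted p under 0.05, 1857 genes differed on day 26. Cdkn1a, Helz2, Banp and the gene listed as ST7 were called on day 26 in every one of the 31 alternatives with 1 probe set a gene.

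Genes called on day 8 with an effect of at least 2-fold (1 on the log2 scale) numbered 276 (2.36% of those tested), 141 higher and 135 lower in 3 mg/kg rats. They were sorted by what their effect had done by day 26. An effect was taken as turned back fully if the change passed, ran against the day 8 effect, and left at most 25% of it with no call on day 26. It was taken as turned back partly if the change passed but more than 25% or a called effect remained. This held fully for 210 genes and partly for 33. A further 6 overshot: the change passed and the day 26 estimate lay beyond control by over 25% of the day 8 effect. None of the 6 was called on day 26, so a reversal past control was not shown. Another 5 had not turned back, meaning that the change did not pass and the day 26 effect was called in the day 8 direction. This does not show that their effect stayed the same. The class that went further held 0 genes, and 22 were unresolved, with neither the change nor the day 26 effect passing. The genes were chosen on the same day 8 arrays that enter the change, so part of their change follows from that choice. The day 26 rats and their controls entered that choice only through the pooled spread, the signal filter and the choice of the brightest probe set. Without control replicate 1 of day 26, for example, 4325 genes were called on day 8.

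Of the risen genes, 92 of 141 (65.2%) had turned back fully and 28 partly, and 5 were in the class that had not turned back. Of the fallen genes, 118 of 135 (87.4%) had turned back fully and 5 partly, with no gene in the class that had not turned back. The median share of the day 8 effect left on day 26 was 13.5% among risen and 2.64% among fallen genes. On day 26, 10 of the 141 risen genes were called in the same direction and 0 of the 135 fallen. These 10 hold the 5 not turned back, so most of the 33 genes in the partial class had no called effect left. Among the 17 genes that had risen by more than 2 on the log2 scale, the median effect was 0.38 on day 26 and 2.70 on day 8, and 14 were still above controls. Among the 25 that had fallen by more than 2, the median effect was -0.02 on day 26 and -2.55 on day 8, and 13 were still below. No test compared the rising arm with the falling arm.

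These moves lay in the dosed rats more than in the controls. The absolute log2 change between days had a median of 1.17 in 3 mg/kg rats and 0.15 in controls for risen genes, and of 1.19 in 3 mg/kg rats and 0.22 in controls for fallen genes. The change in dosed rats was the larger for 137 of 141 risen and 131 of 135 fallen genes. Turned back fully does not mean shown to be at control level. The 95% interval of the day 26 effect lay within 25% of the day 8 effect for 5 of the 92 risen and 13 of the 118 fallen genes of that class, and within 50% for 81 and 104.

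**Figure D1:**
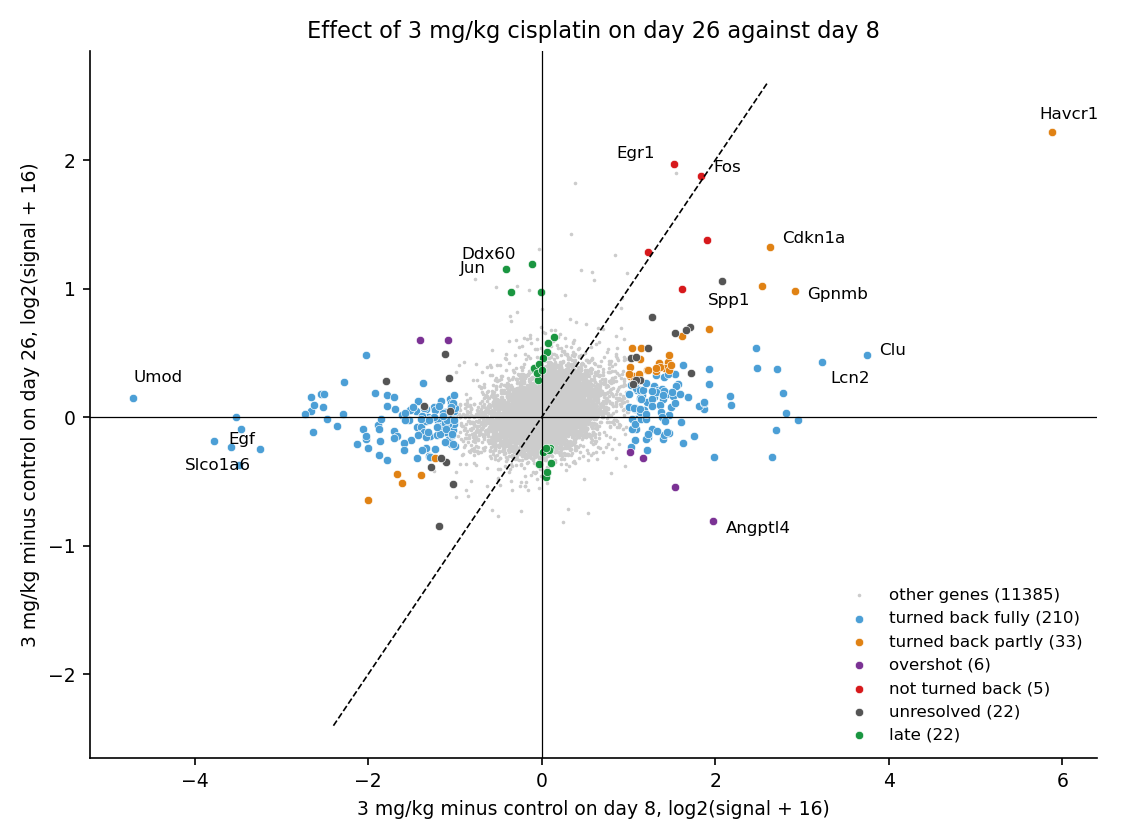
Each point is 1 of the 11683 genes, with the 3 mg/kg minus control effect on day 8 on the x axis and on day 26 on the y axis, both as differences of log2(signal + 16); colours give the classes and the dashed line marks equal effects. The fallen genes on the left sit along the 0 line, while Havcr1, Cdkn1a, Spp1 and Gpnmb on the right lie between 0 and the dashed line, and Egr1 and Fos lie on or above it.

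The 2-fold limit kept Gprc5a with a day 8 effect of 1.01 and left out Cldn10 at -0.99. The 25% limit put Cyp1b1, with 24.9% of its effect left, in the full class and Tnc, with 25.1%, in the partial one. With a 10% limit 128 genes would count as fully and 97 as partly turned back, and with a 50% limit 5 as partly.

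Kidney injury markers had mostly, but not evenly, returned. Of 26 tested markers, 21 rose and 1 fell on day 8, against 21.4% and 15.9% of all genes. On day 26 Ccn1 alone was called, higher in 3 mg/kg rats, as were 0.556% of all genes. Positive effects on day 26 were found in 24 of the 26 and in 6723 of all 11683 genes. In 4 of the 26 every 3 mg/kg rat of day 26 stood above every control, against 3.62% of all genes. The list's median effect was 0.28 on day 26 and 1.45 on day 8, against 0.03 and 0.04 over all genes. Without 3 mg/kg replicate 1 of day 26 the day 26 median was 0.19, and 20 effects were positive. The change was called lower for 18 and higher for 1, against 7.66% and 7.30% of all genes. Of the 16 markers with at least 2-fold day 8 effects, 13 had turned back fully and 3 partly.

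Havcr1, which encodes the membrane protein KIM-1 of injured proximal tubule cells, had the largest day 26 effect in size of all genes tested, though it was not called. Its signals on day 26 were 327, 36.5, 42.5, 167 and 19.2 in 3 mg/kg rats, against 4.48, 3.33, 0.772 and 7.41 in controls. On day 8 they were 2177, 829.5, 679.7, 1581 and 1639.5 in 3 mg/kg rats and between 1.73 and 10.2 in controls. Every 3 mg/kg rat stood above every control on both days, and on day 26 replicates 1 and 4 stood well above the other 3 mg/kg rats. The effect was 2.22 ± 0.66 on day 26 (SE, limma adjusted p = 0.077) and 5.88 ± 0.62 on day 8, and the change was -3.66 ± 0.91 (limma adjusted p = 0.0035), leaving 37.8%. The day 26 effect passed in 1 of 33 alternatives, that without the offset, and the change in all 33.

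Spp1 encodes osteopontin, a secreted matrix protein of stressed tubules. Its signals on day 26 were 2951, 1401, 966, 1739.9 and 708 in 3 mg/kg rats, against 753, 418, 769 and 831 in controls. On day 8 they ran from 3129.9 to 4984 in 3 mg/kg rats and from 419.5 to 931 in controls. The day 26 groups overlapped through 3 mg/kg replicate 5, the day 8 groups did not. The effect was 1.02 ± 0.31 on day 26 (SE, limma adjusted p = 0.077) and 2.54 ± 0.29 on day 8, and the change was -1.52 ± 0.42 (limma adjusted p = 0.0088).

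Gpnmb, a glycoprotein of macrophages and injured epithelium, had signals on day 26 of 109.5, 39.6, 32.4, 50.8 and 22.1 in 3 mg/kg rats, against 13.9, 13.1, 16.01 and 17.4 in controls. Again replicates 1 and 4 were the highest, and the groups did not overlap. Its effect was 0.98 ± 0.31 on day 26 (SE, limma adjusted p = 0.095) and 2.92 ± 0.30 on day 8, and the change of -1.94 ± 0.43 passed (limma adjusted p = 0.0012).

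Clu, the chaperone clusterin, was in the full class and had signals on day 26 of 473, 183, 221, 255 and 202 in 3 mg/kg rats, against 164 to 192 in controls. On day 8 they ran from 1581 to 3608 in 3 mg/kg rats and from 157 to 184 in controls. Its effect was 0.48 ± 0.40 on day 26 and 3.74 ± 0.38 on day 8 (SE), with a change of -3.26 ± 0.55 (limma adjusted p = 3.3e-05). Replicates 1 and 4 were the highest for Clu and also for Lcn2, the iron-carrier binding protein NGAL, at 95.3 and 43.5 against 22.0 to 27.3 in the other 3 mg/kg rats and 19.3 to 28.03 in controls. Lcn2 changed by -2.80 ± 0.50 (limma adjusted p = 6.8e-05). Timp1, an inhibitor of matrix proteases, changed by -1.93 ± 0.43, with 21.9% of its day 8 effect left. Its effect was 0.54 on day 26 and 2.47 on day 8, and leaving out dosed replicate 1 of day 26 gave 0.32 for day 26, while leaving out replicate 2 gave 0.72. The fibrinogen chain Fgb, with an effect of 0.19 ± 0.27 on day 26 and 2.78 ± 0.26 on day 8, and the TWEAK receptor Tnfrsf12a, with 0.38 ± 0.26 and 2.72 ± 0.25 on the same days, were also in the full class.

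For smaller rises of mesenchymal and adhesion markers, neither the change nor the day 26 effect passed. Vim, the intermediate filament vimentin, had signals on day 26 of 366 to 618 in 3 mg/kg rats and 309 to 362 in controls, without overlap. Its effect was 0.39 ± 0.13 on day 26 (SE, limma adjusted p = 0.099) and 0.81 ± 0.12 on day 8, and the change of -0.41 ± 0.18 did not pass (limma adjusted p = 0.11). The hyaluronan receptor Cd44 had an effect of 0.42 ± 0.16 on day 26 and 0.78 ± 0.15 on day 8, with a change of -0.36 ± 0.22 (limma adjusted p = 0.29).

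**Figure D2:**
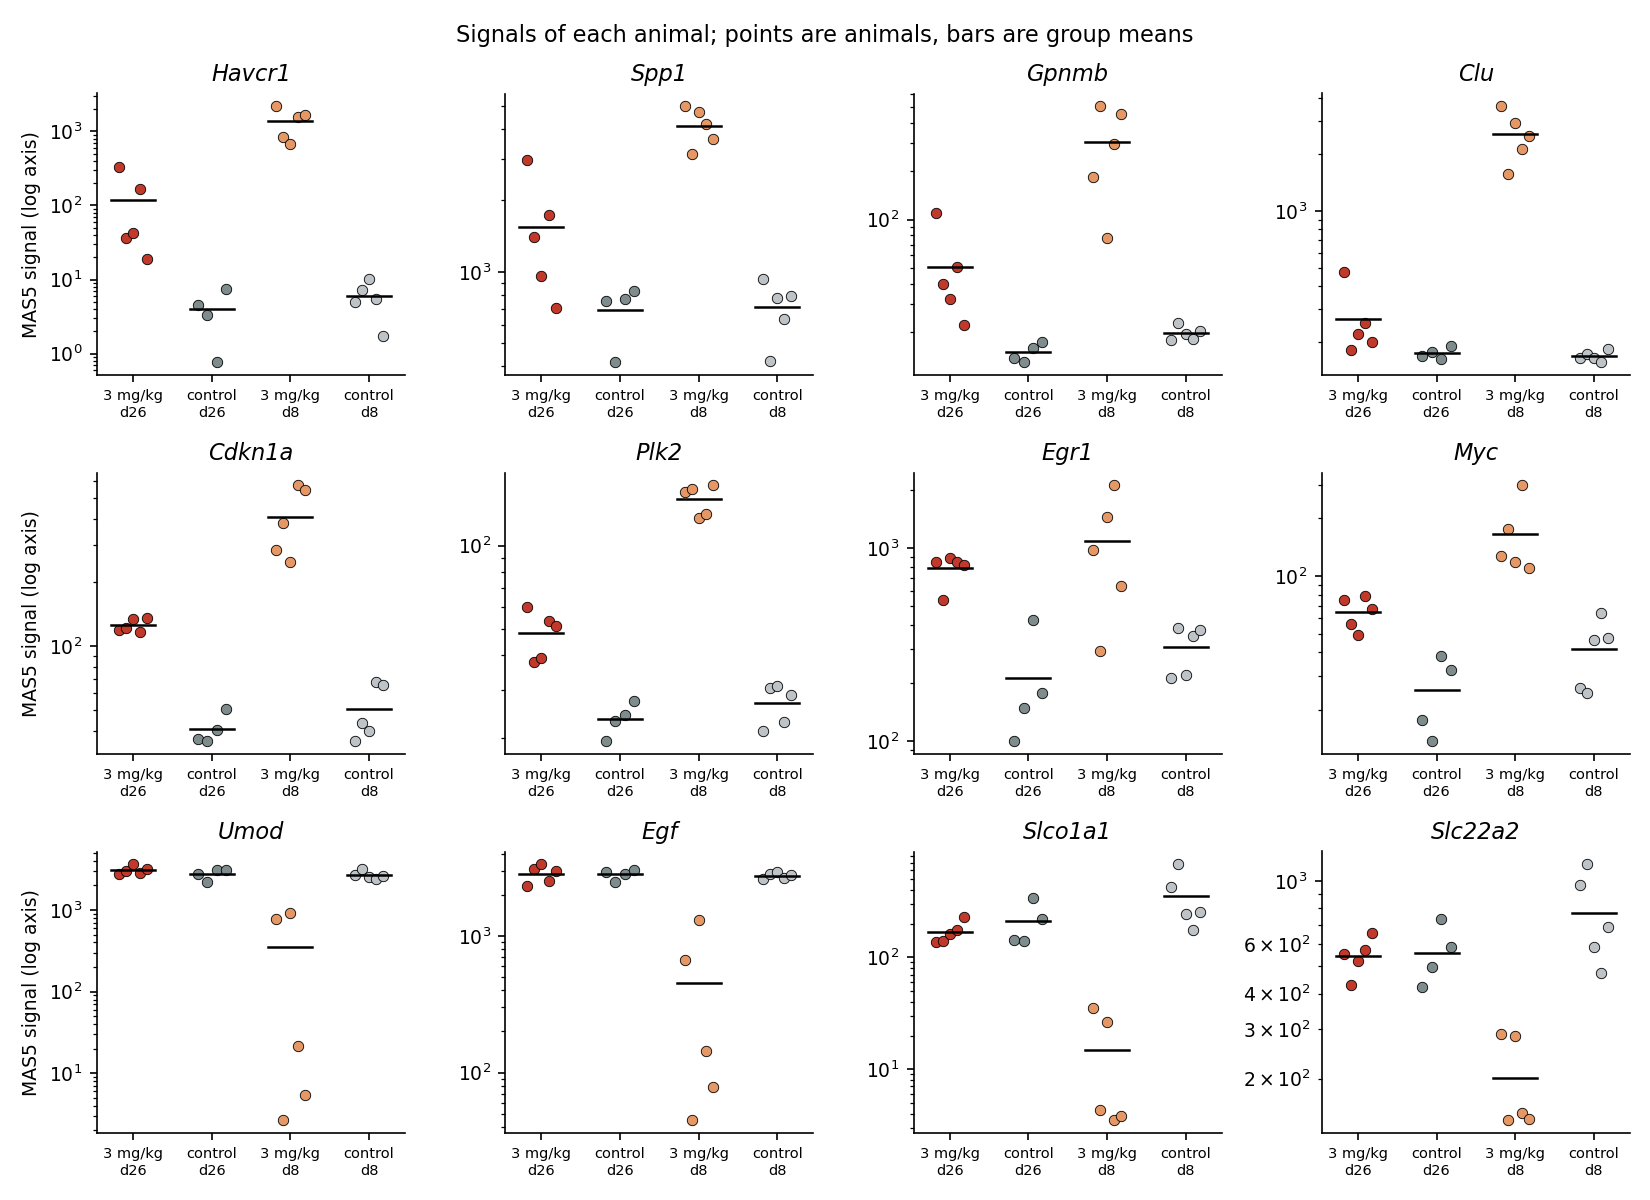
MAS5 signals (log axes) of 12 genes, with a point for each rat and a bar at the group mean, in the order 3 mg/kg day 26, control day 26, 3 mg/kg day 8 and control day 8. Havcr1, Spp1 and Gpnmb spread widely among the 3 mg/kg rats of day 26, Cdkn1a lies in a narrow band from 117 to 135 there, and Umod and Egf overlap with controls on day 26 after their loss on day 8.

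On day 26, 5 of 22 tested p53 target genes were called, all higher in 3 mg/kg rats, where 0.556% of all genes were called higher. On day 8, 16 were higher and 1 lower. The list's median effect was 0.22 on day 26 and 0.46 on day 8. In 10 of the 22 every 3 mg/kg rat of day 26 stood above every control, a pattern found in 3.62% of all genes. The change was called lower for 11 and higher for 1. The 5 called on day 26 became 3 with the 19 arrays alone, 3 with the actin covariate, 3 with an offset of 64, 3 without control replicate 1 of day 26 and 2 without 3 mg/kg replicate 1 of day 26.

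Cdkn1a encodes p21, the inhibitor of cyclin-dependent kinases that holds damaged cells in arrest. Its signals on day 26 were 119, 122, 134, 117 and 135 in 3 mg/kg rats, against 36.7, 35.8, 40.2 and 50.5 in controls. On day 8 they were 285, 381, 251, 574 and 547 in 3 mg/kg rats, against 35.8, 43.4, 39.7, 67.8 and 65.6 in controls. The 5 dosed rats of day 26 lay close together, with an SD of 0.09 on the log2 scale where Havcr1 had 1.38. The effect on Cdkn1a was 1.32 ± 0.20 on day 26 (SE, limma adjusted p = 0.0004) and 2.63 ± 0.19 on day 8, so 50.3% remained, and the change of -1.31 ± 0.28 passed (limma adjusted p = 0.00074). Both the day 26 effect and the change passed in all 33 alternatives.

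Plk2, a kinase of the centriole cycle, had signals on day 26 of 59.7, 37.9, 39.0, 53.4 and 51.0 in 3 mg/kg rats, against 19.6, 23.1, 24.3 and 27.3 in controls. On day 8 it ran from 126 to 165 in 3 mg/kg rats and from 21.3 to 31.1 in controls. The effect was 0.69 ± 0.14 on day 26 (SE, limma adjusted p = 0.013) and 1.93 ± 0.14 on day 8. Phlda3, a repressor of Akt signalling, had an effect of 0.64 ± 0.14 on day 26 (limma adjusted p = 0.023) and 1.61 ± 0.13 on day 8. For both genes the rats did not overlap on either day, and 35.8% of the effect of Plk2 and 39.4% of that of Phlda3 remained. The day 26 call passed in 30 of 33 alternatives for Plk2 and in 27 for Phlda3.

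Ccng1, cyclin G1, had signals on day 26 of 969, 1049.7, 891, 988 and 1024 in 3 mg/kg rats, against 824, 631, 642 and 825 in controls. Its effect was 0.43 ± 0.10 on day 26 (SE, limma adjusted p = 0.028) and 1.45 ± 0.09 on day 8, a change of -1.02 ± 0.14 (limma adjusted p = 1.4e-06). The day 26 call was lost in 8 of 33 alternatives, with adjusted p up to 0.17 in the limma fit of the 19 arrays alone. Aen, an exonuclease gene outside the naming rule and chosen after its values were seen, was the last of the 5, with an effect of 0.44 ± 0.09 on day 26 (limma adjusted p = 0.0085) and 0.88 ± 0.08 on day 8. Mdm2, the ligase that degrades p53, had signals on day 26 of 263 to 279 in 3 mg/kg rats, above the 200.4 to 245 of controls. Its effect was 0.28 ± 0.09 on day 26 (limma adjusted p = 0.090) and 0.82 ± 0.08 on day 8. Gdf15, a stress cytokine, was unresolved, with an effect of 1.06 ± 0.39 on day 26 (limma adjusted p = 0.15), 2.08 ± 0.37 on day 8 and a change of -1.02 ± 0.54 (limma adjusted p = 0.21).

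The effects over all sampling days had their own courses, each given here in the order of days 3, 5, 8 and 26. For Cdkn1a they were 2.09, 2.29, 2.63 and 1.32, and for Ccng1 1.84, 1.73, 1.45 and 0.43. For Havcr1 they were 3.47, 4.85, 5.88 and 2.22. Clu, with 0.16, 1.64, 3.74 and 0.48, and Lcn2, with 0.43, 1.63, 3.23 and 0.43, had their largest effect on day 8. Each day had its own dosed rats and controls.

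**Figure D3:**
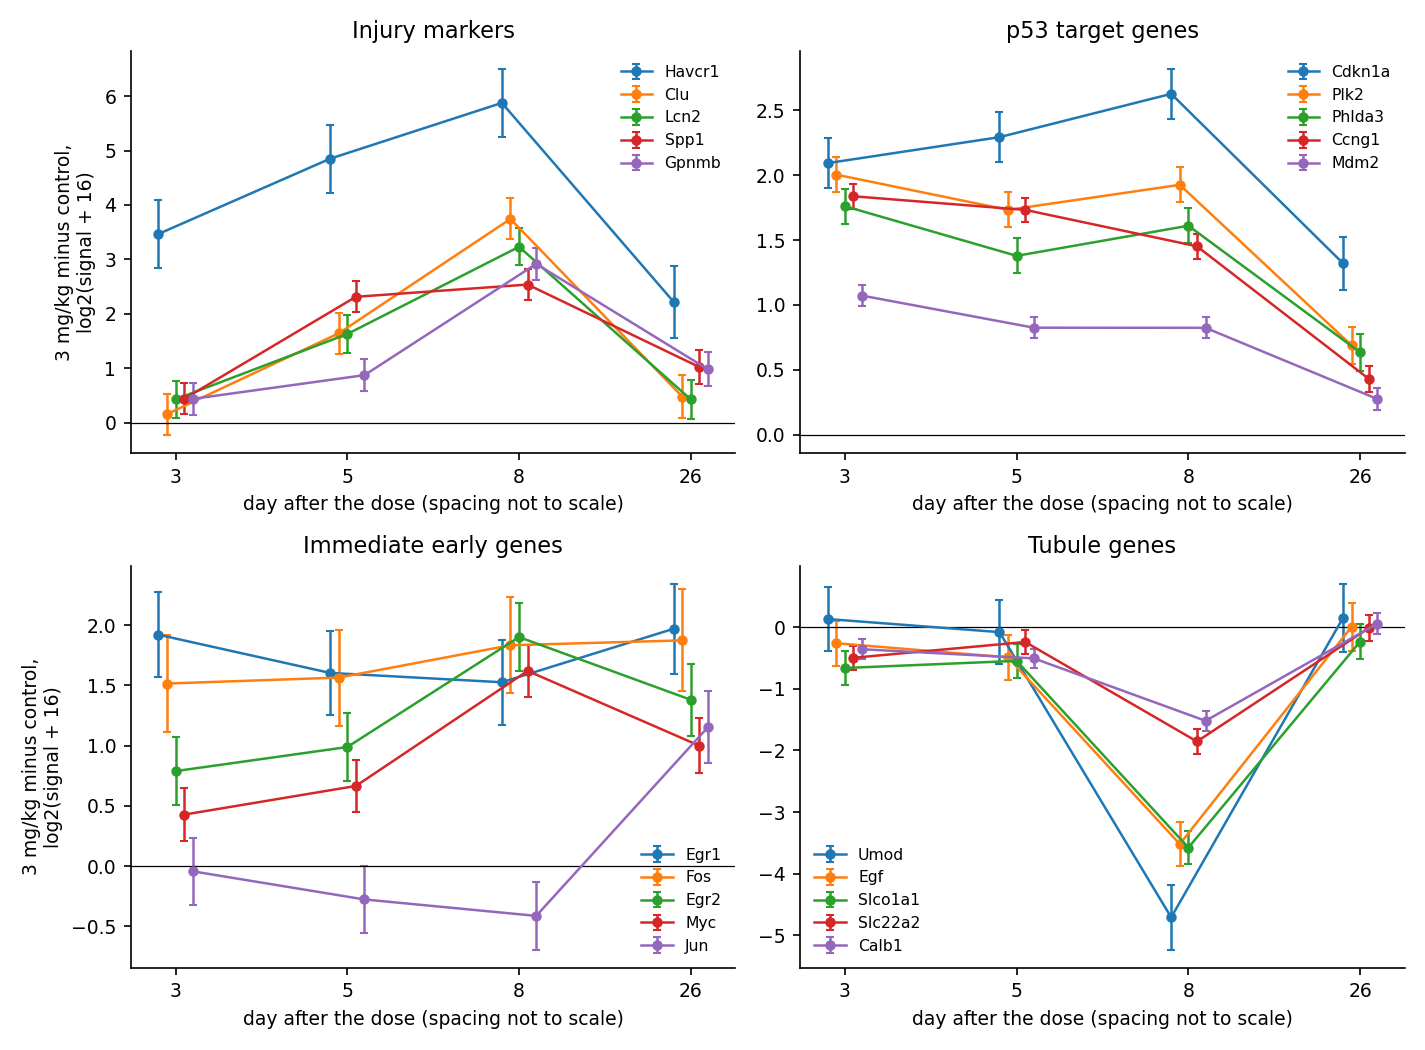
Effects of 3 mg/kg (dosed minus same-day control, log2(signal + 16), ± SE of the limma fit) on days 3, 5, 8 and 26 for named genes of 4 kinds; the day axis is not to scale. Tubule genes dip on day 8 and lie at 0 on day 26, p53 targets stay above 0 on every day, and Jun is the 1 immediate early gene shown that lies near or under 0 until day 26.

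Immediate early genes were the ones in the class that had not turned back. Of 19 tested, 10 were called on day 26 and all 10 were higher in 3 mg/kg rats (0.556% of all genes were called higher), while 13 were called higher on day 8. In 10 of the 19, every 3 mg/kg rat of day 26 stood above every control, a pattern found in 3.62% of all genes. Fos and Jun were called but were not among these. The list's median effect was 0.77 on day 26 and 0.45 on day 8, and 18 of 19 effects were positive on day 26. The change was called for 5, in both directions, 2 higher and 3 lower. All 5 genes in the class that had not turned back, Egr1, Fos, Egr2, Atf3 and Myc, came from this list.

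Egr1, a zinc finger factor of growth and stress signalling, had signals on day 26 of 845, 539, 887, 850.3 and 812 in 3 mg/kg rats, against 101, 149, 426 and 178 in controls. The day 8 signals were 972, 293, 1437, 2105 and 639 in 3 mg/kg rats, against 212, 385, 221, 350.1 and 377 in controls. The dosed rats stood above all controls on day 26, whereas 3 mg/kg replicate 2 lay among the controls on day 8. The effect was 1.97 ± 0.37 on day 26 (SE, limma adjusted p = 0.0045) and 1.53 ± 0.35 on day 8, and the change of 0.44 had a 95% interval from -0.58 to 1.47 (limma adjusted p = 0.62). Its promoter, printed above, holds 2 CArG boxes, which begin 105 and 83 bases before the start.

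Fos, which pairs with Jun in the factor AP-1, had signals on day 26 of 328, 116, 301, 311 and 208 in 3 mg/kg rats, against 17.1, 20.7, 125 and 117 in controls. The groups touched, since replicate 2 of the dosed rats lay below controls 3 and 4. The effect was 1.87 ± 0.42 on day 26 (SE, limma adjusted p = 0.024) and 1.83 ± 0.40 on day 8, and the change was 0.04 ± 0.58 (limma adjusted p = 0.98). Its sign turned in 11 of the 33 alternatives, so no direction is given for it.

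Egr2, a relative of Egr1 with 1 CArG box 83 bases before its start, had an effect of 1.38 ± 0.30 on day 26 (SE, limma adjusted p = 0.018) and 1.90 ± 0.28 on day 8. Atf3, a stress-induced repressor, had signals on day 26 of 102, 42.5, 72.1, 105 and 39.2 in 3 mg/kg rats, against 14.8 to 20.6 in controls, and effects of 1.29 ± 0.30 on day 26 (limma adjusted p = 0.028) and 1.23 ± 0.28 on day 8. Myc, the growth regulator, had signals on day 26 of 74.9, 55.9, 49.0, 78.8 and 67.6 in 3 mg/kg rats, against 17.8, 13.7, 38.1 and 32.2 in controls. Its effect was 1.00 ± 0.23 on day 26 (limma adjusted p = 0.028) and 1.62 ± 0.22 on day 8, and the change of -0.62 ± 0.32 did not pass (limma adjusted p = 0.19). Junb, a partner of Fos, was in the partial class, with 0.53 ± 0.16 on day 26 (limma adjusted p = 0.077), 1.14 ± 0.15 on day 8 and a change of -0.61 ± 0.22 (limma adjusted p = 0.048) that passed in 14 of 33 alternatives.

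Jun was called on day 26 but not on day 8. Its signals then were 1330.1, 1127, 1556, 1692 and 1574 in 3 mg/kg rats, against 400.3, 646, 1148 and 558 in controls, and on day 8 they were 603 to 1293 in 3 mg/kg rats, against 498 to 1546 in controls. On day 26 the groups touched, since control replicate 3 lay above dosed replicate 2. The effect was 1.15 ± 0.30 on day 26 (SE, limma adjusted p = 0.046, passing in 16 of 33 alternatives) and -0.41 ± 0.28 on day 8, and the change of 1.57 ± 0.41 passed (limma adjusted p = 0.0053). Dusp1, a phosphatase that ends MAP kinase signals, had effects of 0.97 ± 0.23 on day 26 and -0.01 ± 0.21 on day 8, with a change of 0.98 ± 0.31 (limma adjusted p = 0.023). Its other, dimmer probe set was not called, with 0.37 on day 26 (limma adjusted p = 0.13) and a change of 0.43 (limma adjusted p = 0.13). Zfp36, which binds and destabilises AU-rich mRNA, was higher by 1.15 ± 0.29 on day 26 (limma adjusted p = 0.041). Ier2 at 0.85 ± 0.19 and Klf6 at 0.74 ± 0.16, both outside the naming rule and chosen after their values were seen, made up the 10. The day 26 calls of the 10 passed in 16 alternatives for Jun to 31 for Egr1, of 33. Ccn1, a secreted matrix signalling protein counted among the injury markers, was higher by 1.82 ± 0.38 on day 26 (limma adjusted p = 0.013) and had a day 8 effect of 0.39 ± 0.36.

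The controls also moved. From day 8 to day 26 the immediate early list had a median change of -0.24 in controls, with 0 genes called lower and 1 higher. Egr1 in controls averaged 214 ± 145 on day 26 and 309 ± 85.5 on day 8 (SD, n = 4 and 5), and Ccn1 averaged 223 ± 219 and 366 ± 134 on the same days. Rats given 1 mg/kg, which were compared with the same day 26 controls, had a median effect of 0.41 over the list on day 26, with no gene called. Egr1 was at 1.25 in them (limma adjusted p = 0.48). Without control replicate 1 of day 26, which had the lowest Egr1, Fos and Ccn1, 1 of the 19 genes was called on day 26, and 4 and 3 without control replicate 2 or 4. Without 3 mg/kg replicate 1, 3 or 4 of day 26 it was 2, 5 and 2. With the 19 arrays alone it was 0, with the actin covariate and with an offset of 64 it was 5, and with quantile normalization 6. The list's median day 26 effect lay between 0.53 and 0.97 in every alternative with 1 value a gene.

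The CArG box was sought in the 250 bases before each gene start, on both strands, which for this palindromic pattern is the same search. It was in 1.5% of 27457 RefSeq promoters and in 119 of the 9722 tested genes with an entry (1.22%). Of the immediate early genes called on day 26, 6 had an entry, and 4 held the box: Egr1, Egr2, Zfp36 and Klf6, the last at 201 bases before its start. None of the other immediate early genes with an entry did, among 13 in all. Fos, Jun, Atf3 and Myc, also called on day 26, had no entry and were not searched. Of all genes higher on day 26, 52 had an entry and 7 held the box: Egr1, Egr2, Zfp36, Klf6, Srf, Cnn2 and RT1-T24-3. Among genes that rose on day 8 and turned back fully, 3 of 71 held it, and among those turned back partly 2 of 22. A match describes letters and not binding, and the shares were not tested against each other.

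Srf and Cnn2, both outside the naming rule and chosen for this match after their values were seen, differed in course. Srf encodes the serum response factor and had signals on day 26 of 135, 169, 133, 172 and 159 in 3 mg/kg rats, against 118, 119, 129.7 and 83.3 in controls. Its effect was 0.41 ± 0.11 on day 26 (SE, limma adjusted p = 0.046, passing in 16 of 33 alternatives) and -0.03 ± 0.10 on day 8, a change of 0.44 ± 0.15 (limma adjusted p = 0.030). Cnn2, an actin-binding calponin, had an effect of 0.59 ± 0.11 on day 26 (limma adjusted p = 0.0043) and 0.66 ± 0.10 on day 8, with a change of -0.07 ± 0.15 (limma adjusted p = 0.80).

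Genes of the loop of Henle and distal tubule turned back. Of 19 tested, 14 were called lower and 1 higher on day 8, and 0 on day 26. The change was called higher for 13 and lower for 1, against 7.30% and 7.66% of all genes. The median effect was 0.06 on day 26 and -1.52 on day 8. Of the 13 with at least 2-fold day 8 effects, 12 had turned back fully and 1, Kcnj1, partly.

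Umod encodes uromodulin, the main protein of the thick ascending limb. Its signals on day 26 were 2719.9, 3033, 3625, 2818 and 3185 in 3 mg/kg rats, against 2793, 2201, 3073 and 3077 in controls. On day 8 they were 785, 2.68, 921, 21.6 and 5.37 in 3 mg/kg rats, against 2393 to 3177 in controls. Replicates 1 and 3 of the dosed rats of day 8 had moderate and the other 3 very low signals, and every dosed rat of day 26 lay in or above the control range. The effect was 0.15 ± 0.55 on day 26 and -4.71 ± 0.52 on day 8 (SE), and the change of 4.85 ± 0.76 passed (limma adjusted p = 1.1e-05). These SEs rest on the spread of all groups, the wide one of the dosed rats of day 8 included.

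Egf, made in the distal convoluted tubule and thick limb, had signals on day 26 of 2312 to 3343 in 3 mg/kg rats, against 2468 to 3019 in controls. Its day 8 signals were 669, 45.02, 1314, 145 and 78.1 in 3 mg/kg rats, against 2624 to 2955 in controls, and replicates 1 and 3 were again the least affected. The change was 3.52 ± 0.53 (SE, limma adjusted p = 6e-06). The sodium-potassium-chloride transporter Slc12a1 changed by 2.82 ± 0.60 (limma adjusted p = 0.00064), and the phosphatase inhibitor Ppp1r1a by 3.38 ± 0.51. Calb1, the calcium buffer calbindin, had signals on day 26 of 2431 to 2946 in 3 mg/kg rats, against 2333 to 2749 in controls, and changed by 1.58 ± 0.23 (limma adjusted p = 4.3e-06). Kcnj1, the potassium channel ROMK, had 170.0, 274, 240.2, 192 and 204 in 3 mg/kg rats on day 26, against 333, 230.4, 326 and 301 in controls. Its effect of -0.44 ± 0.19 on day 26 was not called (limma adjusted p = 0.24), and was 26.3% of the -1.67 ± 0.18 of day 8, just past the limit between the classes.

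Proximal tubule genes had moved both ways on day 8, and no member of the lists was called on day 26, where 0.753% of all genes were. A count of 0 in a list of this size is near that share. Of 35 transporters, 10 were higher and 13 lower on day 8, against 21.4% and 15.9% of all genes. The change was called higher for 9 and lower for 7, against 7.30% and 7.66%. The same shares over all genes apply to the counts of the other lists, also those given above. All 9 with 2-fold day 8 effects had turned back fully. Of 32 enzymes, 8 were higher and 13 lower on day 8, the change was higher for 11 and lower for 4, and 7 of 8 with 2-fold effects had turned back fully. Slc22a2, the cation transporter that takes up cisplatin, had signals on day 26 of 553, 430.0, 521, 569 and 653 in 3 mg/kg rats, against 421, 496, 732 and 584 in controls. The day 8 signals were 143 to 288 in 3 mg/kg rats, against 473 to 1147 in controls. The change was 1.84 ± 0.28 (SE, limma adjusted p = 9.4e-06).

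The organic anion transporter Slco1a1 had signals on day 26 of 137, 140.1, 161, 176 and 228 in 3 mg/kg rats, against 142, 141, 342 and 219.9 in controls. On day 8 it had 3.51 to 35.4 in 3 mg/kg rats, against 176 to 679.7 in controls. Its change of 3.34 ± 0.39 (SE, limma adjusted p = 1.1e-07) ran beside a change between days of -0.64 in controls (limma adjusted p = 0.26). Its relative Slco1a6 changed by 3.60 ± 0.63, with controls of day 26 spread from 124 to 716. Tff3, a secreted mucosal peptide, had an effect of -0.37 ± 0.44 on day 26 and -3.48 ± 0.41 on day 8. Of 16 collecting duct genes, 7 were lower and 1 higher on day 8 and 0 were called on day 26, with median effects of -0.03 on day 26 and -0.28 on day 8.

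**Figure D4:**
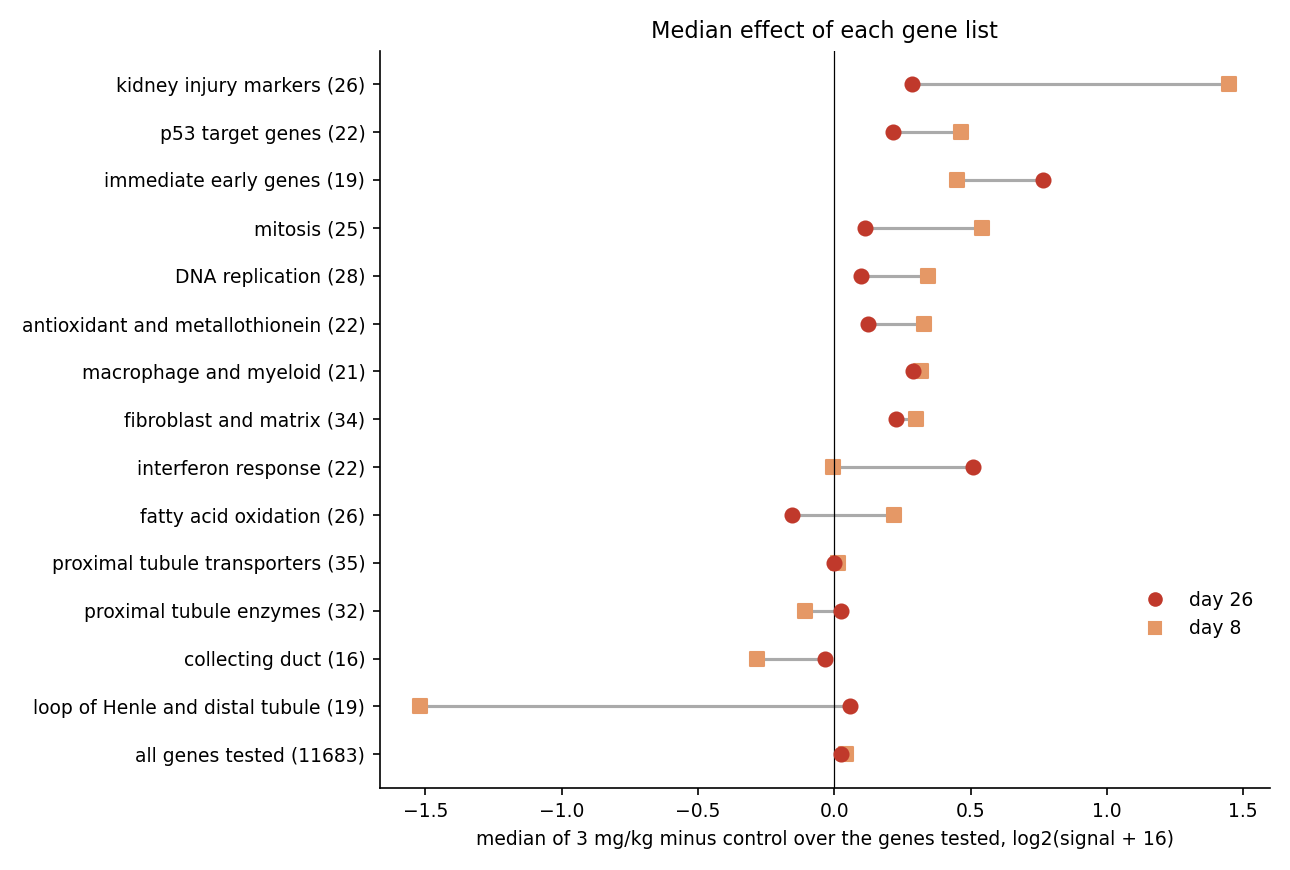
Median effect of 3 mg/kg (dosed minus control, log2(signal + 16)) over the tested genes of each list, with the number of genes in brackets, for day 26 (circles) and day 8 (squares). Loop and distal tubule genes had a median of 0.06 on day 26 and -1.52 on day 8, and injury markers 0.28 and 1.45, while the medians of the immediate early and interferon lists were 0.77 and 0.51 on day 26 and 0.45 and -0.0049 on day 8.

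Of 22 antioxidant and metallothionein genes, 14 were higher and 2 lower on day 8 and 0 were called on day 26, and the change was lower for 10 and higher for 1. Abcc2, an efflux pump for conjugates, had signals on day 26 of 54.0 to 65.9 in 3 mg/kg rats, against 51.4 to 80.7 in controls. The day 8 signals were 244, 1241, 133, 1035 and 450.2 in 3 mg/kg rats, against 49.6 to 64.8 in controls, and changed by -2.80 ± 0.37 (SE, limma adjusted p = 1.4e-06). Srxn1, which repairs oxidised peroxiredoxins, had 55.6 to 80.1 in 3 mg/kg rats on day 26 and 48.5 to 65.2 in controls, and an effect of 0.16 ± 0.22 on day 26 and 2.17 ± 0.21 on day 8. The glutathione peroxidase Gpx2 changed by -2.10 ± 0.58 (limma adjusted p = 0.0081), with control replicate 4 of day 26 at 228 and the other controls of that day at 30.3 to 45.8.

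Of 25 mitosis genes, 21 were higher and 1 lower on day 8 and 0 were called on day 26, but the change passed for 6, 5 lower and 1 higher. The median effect was 0.11 on day 26 and 0.54 on day 8. Of 28 DNA replication genes, 16 were higher on day 8 and 0 were called on day 26, with the change lower for 2, near the 7.66% of all genes. Top2a, the topoisomerase that untangles replicated DNA, had signals on day 26 of 34.8, 11.01, 28.7, 33.8 and 27.3 in 3 mg/kg rats, against 16.04, 37.7, 28.9 and 29.3 in controls. Its effect was -0.04 ± 0.20 on day 26 and 0.75 ± 0.19 on day 8 (SE), with a change of -0.79 ± 0.27 (limma adjusted p = 0.040) that passed in 16 of 33 alternatives. Its other probe set changed by -0.41 (limma adjusted p = 0.35).

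Of 34 fibroblast and matrix genes, 0 were called on day 26, with 31 effects positive and a median of 0.23, and 17 were higher and 2 lower on day 8. In controls, 7 of the list fell between day 8 and day 26, where 0.556% of all genes fell. Col1a1, a collagen chain, was among them. It had 56.2 to 80.4 in 3 mg/kg rats on day 26, 41.7 to 62.5 in controls of day 26, and 77.5 to 119 in controls of day 8, and the control change was -0.74 (limma adjusted p = 0.011). Tnc, the repair-associated matrix protein tenascin C, turned back partly, with signals on day 26 of 19.5 to 42.9 in 3 mg/kg rats, against 16.8 to 24.8 in controls, and a change of -1.10 ± 0.27 (limma adjusted p = 0.0027). The collagen cross-linking enzyme Lox and the proteoglycan Dcn turned back fully, with changes of -1.20 ± 0.24 and -1.10 ± 0.24. Tagln, a smooth muscle marker, was unresolved, with 0.65 ± 0.24 on day 26 and 1.53 ± 0.22 on day 8.

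Of 21 macrophage and myeloid genes, 0 were called on day 26 and 10 on day 8, with 20 effects positive on day 26. Their summed signal on day 26 was 2909 to 4114 in 3 mg/kg rats and 2693 to 2874 in controls. Of 12 T, B and plasma cell genes, 1 was called on day 26, Cd3g, the CD3 gamma chain of the T cell receptor complex (effect of 0.56, limma adjusted p = 0.049, passing in 10 of 32 alternatives), and all 12 effects were positive, with sums of 299 to 513 in 3 mg/kg rats and 215 to 283 in controls. As stated, the median signal of all genes on these arrays was also without overlap between the groups, and its part in these sums was not tested.

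Called on day 26 but not on day 8, with a change that passed in the direction of the day 26 effect, were 22 genes, 14 higher and 8 lower in 3 mg/kg rats. With the 19 arrays alone this class held 1 gene. Helz2, a helicase co-activator induced by interferon, had signals on day 26 of 67.3, 59.4, 65.1, 66.2 and 70.8 in 3 mg/kg rats, against 35.0, 41.9, 37.8 and 41.1 in controls. On day 8 it had 34.4 to 53.7 in 3 mg/kg rats, against 33.1 to 41.8 in controls. The effect was 0.57 ± 0.10 on day 26 (SE, limma adjusted p = 0.0033) and 0.07 ± 0.09 on day 8, and the change of 0.51 ± 0.14 passed (limma adjusted p = 0.0077). Of the 22, it alone kept this class under every alternative with 1 probe set a gene.

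Of 22 tested interferon-response genes, all 22 had positive effects on day 26, as had 6723 of all 11683 genes. The list's median effect was 0.51 on day 26, against -0.0049 on day 8. In 1 of the 22 every 3 mg/kg rat of day 26 stood above every control, where 3.62% of all genes had this pattern. Oasl and Irf9, both outside the naming rule and chosen after their values were seen, were called. The call of Oasl passed in 29 of 32 alternatives and that of Irf9, at a limma adjusted p of 0.049, in 12 of 33. The change was called higher for 5 and lower for 0. Without 3 mg/kg replicate 2 of day 26, which had the lowest Irf7, Mx1 and Oasl of the dosed rats, 13 were called on day 26, and without 3 mg/kg replicate 1 or control replicate 1 of day 26 it was 0. With the 19 arrays alone it was also 0, and without 3 mg/kg replicate 2 or 3 of day 8 it was 5. Irf7, the interferon amplifier, had signals on day 26 of 249, 51.8, 153, 157 and 165 in 3 mg/kg rats, against 56.2, 70.9, 73.6 and 48.3 in controls. Its effect was 1.02 ± 0.28 on day 26 (SE, limma adjusted p = 0.062) and -0.28 ± 0.27 on day 8, and the change of 1.30 ± 0.39 passed (limma adjusted p = 0.016). Ddx60, an RNA helicase of antiviral sensing that is not among the 22 listed genes, had 66.1, 20.7, 22.5, 53.7 and 55.3 in 3 mg/kg rats on day 26, against 3.00 to 13.4 in controls, with an effect of 1.19 ± 0.25 (limma adjusted p = 0.013) and a change of 1.30 ± 0.35. Mx1, an antiviral GTPase, had an effect of 0.82 ± 0.24 on day 26 (limma adjusted p = 0.074) and a change of 1.11 ± 0.33 (limma adjusted p = 0.015).

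Banp, a nuclear protein that binds DNA, was above controls on day 26 and below them on day 8. It is outside the naming rule and was chosen after its values were seen. Its signals on day 26 were 73.9, 85.6, 77.2, 76.2 and 54.9 in 3 mg/kg rats, against 36.3, 31.5, 38.0 and 42.8 in controls. The day 8 signals were 30.8 to 46.8 in 3 mg/kg rats, against 49.3 to 74.0 in controls. The groups were apart on both days in opposite directions, with an effect of 0.75 ± 0.14 on day 26 (SE, limma adjusted p = 0.0039) and -0.35 ± 0.13 on day 8 (limma adjusted p = 0.028), and a change of 1.10 ± 0.19 (limma adjusted p = 4.4e-05). Of the genes called on day 26, 5 had been called the other way on day 8. The gene listed as ST7 was lower on both days. Its signals on day 26 were 77.8 to 85.2 in 3 mg/kg rats, against 106 to 112 in controls, and its effect was -0.37 ± 0.07 on day 26 (limma adjusted p = 0.0058) and -0.35 ± 0.07 on day 8.

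Of 26 fatty acid oxidation genes, 13 were higher and 5 lower on day 8, and 1, Eci2, was called on day 26, lower in 3 mg/kg rats, and 24 effects were negative. The change was called lower for 12 and higher for 0, with median effects of -0.16 on day 26 and 0.22 on day 8. Without control replicate 4 of day 26 the day 26 median was -0.078, 6 effects were positive and 0 genes of the list were called. Eci2, an enzyme that shifts double bonds of fatty acids, had signals on day 26 of 633, 649, 573, 663 and 638 in 3 mg/kg rats, against 759, 718, 785 and 1000.4 in controls. Its effect was -0.35 ± 0.09 on day 26 (SE, limma adjusted p = 0.046, passing in 17 of 33 alternatives) and 0.36 ± 0.08 on day 8, and the change of -0.71 ± 0.12 passed (limma adjusted p = 5.4e-05). Ehhadh, a peroxisomal enzyme of the same pathway, had 533 to 702 in 3 mg/kg rats on day 26, against 577 to 849 in controls, and changed by -1.47 ± 0.26 (limma adjusted p = 6.4e-05). Angptl4, a fasting-induced lipase inhibitor, was among the 6 genes that overshot, with signals on day 26 of 29.8, 36.9, 17.6, 35.3 and 16.01 in 3 mg/kg rats, against 49.2, 27.96, 18.3 and 285 in controls. Control replicate 4 alone stood far from the rest, and it also had the highest Eci2 and Ehhadh. The day 26 effect of Angptl4 was -0.80 ± 0.37 (limma adjusted p = 0.27), and -0.13 without that control (limma adjusted p = 0.91).

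In rats given 1 mg/kg, limma called 0 genes for the change of the effect (0.00%), 1 on day 26 (0.00856%) and 61 on day 8 (0.522%), 50 higher (0.428%) and 11 lower (0.0942%). Cdkn1a was at 0.43 in 1 mg/kg rats on day 26 (limma adjusted p = 0.75) and Havcr1 at 0.27 (limma adjusted p = 0.97), against 1.32 and 2.22 in 3 mg/kg rats. The dose groups share their controls.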

How the data were processed

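RNA of cortex-enriched rat kidney was measured on Affymetrix Rat 230 2.0 arrays. The deposited values are intensity values on a linear scale; the submitters' processing notes name MAS5, with no version. Of 31099 probe sets, 57 controls were left out, 20826 had 1 gene symbol in the platform annotation (20758 updated through gene numbers), 436 had several and 9780 had none. Probe sets above the 40th percentile of their array on at least 3 arrays (21829) were kept, and the brightest per gene was used. On log2(signal + 16), limma 3.58.1 in R 4.3.3 fitted 12 group means over all 57 arrays, with an intensity trend, so standard errors pool the spread of all groups. Tests were two-sided with Benjamini-Hochberg adjustment per contrast. The fit was tested on simulated data. The number of arrays limits the precision; arrays of a group correlated at 0.961 to 0.993. Replicate numbers did not pair the samples (27 pairs, correlations of deviations from -0.17 to 0.12). Members, gene lists and alternatives were chosen with earlier results of these data known.

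Genes were named by a rule: the largest rises and falls of day 8, the largest changes each way, the largest called day 26 effects, the members of each class with the largest day 26 effects, a set of kidney genes whatever their result, and the largest effects of each list. The exceptions are named in the text. Alternatives changed the offset, scaling, filter, probe sets per gene, variance model, arrays fitted, replicate block, actin ratio, class limits, and left out each of the 19 rats.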

Additional observations from a re-analysis of the deposited data

Results flagged for a closer look

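The change of the 3 mg/kg effect between the days passed for 1748 genes by a test of the difference itself, at a limma adjusted p under 0.05. Some of these calls can be false at that threshold, and with the 19 arrays alone 868 genes passed. In 264 groups of 4 or 5 rats examined, 10 held a value whose gap to its neighbour was large for the range of the group, and chance gives about 1 in 20. Among the 3 mg/kg rats of day 26, replicate 2 had the lowest Egr1 signal, 539 against 812 to 887 in the others, and the lowest Top2a signal, 11.01 against 27.3 to 34.8. Replicate 5 of that group had the highest Mdm2 signal, 279 against 263 to 267. Among controls of day 26, replicate 2 had the lowest Spp1 signal, 418 against 753 to 831, and replicate 3 lay lowest on the first principal component of the 19 arrays, at -13.7 against -11.9 to -11.5. In the 3 mg/kg rats of day 8, replicate 2 had the lowest Banp signal, 30.8. Among controls of day 8, replicate 1 had the lowest Mdm2 signal, 172, and the highest Oasl signal, 26.9. Replicate 2 of those controls had the highest Gpx2 signal, 139, and replicate 3 the lowest Cnn2 signal, 166.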

How the results depend on the processing

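Leaving out 1 rat at a time gave 1515 to 2363 genes for the change, 12 to 209 for day 26 and 3759 to 4524 for day 8. The classes then held 171 to 266 genes turned back fully, 21 to 40 partly (21 without 3 mg/kg replicate 1 of day 26), 4 to 10 overshot, 0 to 9 not turned back, 19 to 39 unresolved, 2 to 46 late and 0 that went further. An offset of 64 gave 56 genes on day 26, 94 fully, 14 partly, 2 overshot, 2 not turned back and 11 unresolved. Without an offset, 23 overshot, 10 had not turned back and 256 were unresolved. Quantile normalization gave 33 genes on day 26, 3 not turned back and 10 late. The 19 arrays alone gave 868 genes for the change, 7 on day 26, 0 not turned back, 67 unresolved and 1 late, and the actin covariate 26 on day 26 and 4 late. Over every kept probe set, 6931 were called on day 8 and 319 on day 26, with 13 not turned back, 42 unresolved and 56 late. A day 8 limit of 0.5 gave 628 fully, 86 partly, 68 overshot, 8 not turned back and 394 unresolved. A 10% limit gave 128 fully, 97 partly and 24 overshot, and a 50% limit 5 partly and 1 overshot. Over these settings the median effect of all genes ran from 0.0017 to 0.033 on day 26, with 0.026 in the main fit. On day 8 it ran from 0.013 to 0.053, with 0.043 in the main fit. Quantile normalization gave the lowest median on both days. Under every alternative with 1 probe set a gene, 70 of the 210 kept the class turned back fully, 7 of 33 the partial class (Ccng1, Cdkn1a, Havcr1, Phlda3, Plk2, Slc25a24 and Spp1), and 0 the classes not turned back and overshot. The cause of these moves was not tested.

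The replicate numbers did not pair the samples: deviations of same-numbered rats correlated between -0.17 and 0.12 (27 pairs). With the replicate block the counts were 1778 for the change, 100 for day 26 and 4382 for day 8.

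Of 4220 single-gene values, 44 changed sign, in the 10 genes given here. The change of Fos was -0.11 with an offset of 64 and with the actin covariate, -0.0098 with quantile normalization, and -0.40 to 0.38 without single rats. The change of Atf3 was -0.062 with an offset of 64 and -0.17 to 0.28 without single rats. Without single rats the change was -0.30 to 0.079 for Ier2 and -0.053 to 0.017 for ST7. The day 26 effect of Egf was -0.043 with quantile normalization, -0.017 with 75th-percentile centring, -0.016 with the actin covariate, and -0.059 to 0.075 without single rats. That of Slc22a2 was 0.026 with quantile normalization, 0.0011 with the replicate block and -0.14 to 0.12 without single rats. That of Top2a was 0.087 for the mean of its probe sets and -0.18 to 0.12 without single rats. Without single rats it was -0.17 to 0.014 for Ppp1r1a, -0.38 to 0.013 for Slco1a1 and -0.52 to 0.28 for Slco1a6.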

Other observations

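Podocyte and antigen-presentation genes had 0 calls on day 26, where 0.753% of all genes were called. For comparison, 6723 of all 11683 genes had positive effects on day 26, and the median signal of the arrays differed between the groups without overlap. Of 10 podocyte genes all 10 had positive effects, with a median of 0.14 and 0 called, and their summed signal was 2023 to 2449 in 3 mg/kg rats and 1767 to 2012 in controls. Of 10 genes of MHC class II presentation all 10 had positive effects, with a median of 0.29 and 0 called on day 26 and 4 on day 8, and sums of 6623 to 7364 in 3 mg/kg rats and 5366 to 5906 in controls. Of 5 adipocyte genes, 0 had positive effects on day 26 and 0 were called.

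Slco1a6, Tff3 and Slc7a12, all lower in 3 mg/kg rats on day 8, varied widely among rats given saline. The first 2 had turned back fully and Slc7a12 partly, with 32.1% of its effect left and a change that passed in 12 of 33 alternatives. Slco1a6 had 159.6, 124, 716 and 339 in controls of day 26 and 949, 1140.5, 399, 233 and 275 in controls of day 8. Tff3 had 664, 456, 1929 and 1441 in controls of day 26 and 2166, 2751, 1204, 915 and 916 in controls of day 8. Slc7a12 had 97.8, 84.8, 434 and 182 in controls of day 26 and 492, 418, 136, 99.5 and 73.5 in controls of day 8. In all 3 genes, replicate 3 was the highest control of day 26, and replicates 1 and 2 were the highest controls of day 8.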
